A study of Mus musculus with 6 samples.

Results

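The genes described here belong to families with enzymes that convert 1 steroid into another by adding or removing hydrogen. Several of them have other main roles, given below. The genes are Hsd17b1, Hsd17b2, Hsd17b4, Hsd17b10, Hsd17b11 and Hsd17b12 of the hydroxysteroid dehydrogenases, Akr1c12, Akr1c13 and Akr1c14 of the aldo-keto reductases, and the steroid reductase Srd5a1. They were found on the arrays as every non-control probe annotated with a RefSeq accession of these genes. Each of the 10 genes had 1 probe, so they make up 10 of the 20972 genes named on the array and 10 of its 55681 probes. The set was drawn up with the difference between the genotypes already known, and its differences are therefore given as descriptions, without tests. Of the 10 probes, 8 passed the filter on dim spots, which asked for a signal well above background on at least 3 of the 6 arrays.

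Pituitaries came from virgin littermate females, 8 weeks old, on a C57BL6 background. The 3 knockout animals (KO) were Jmjd2a-/- and the 3 controls (WT) Jmjd2a+/+. Its current symbol is Kdm4a, and its product removes methyl groups from histones. All 6 females, controls included, had been exposed to bedding soiled by a male, which starts the oestrous cycle (Whitten effect), and were killed 24 h later. RNA of each whole gland was labelled with Cy3 and hybridised to its own one-colour Agilent array. Which part of the gene the null allele lacks is not stated in the labels, and they name no promoter or Cre line that would limit the loss to the pituitary. In RNA from a whole gland, fewer cells of a type and less RNA per cell cannot be told apart.

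Steroid hormones reach the pituitary in the blood, and enzymes inside the gland decide how much of each active form its receptors meet. Hydroxysteroid dehydrogenases switch oestrogens and androgens between a potent and a weak form: some members reduce oestrone to oestradiol, others oxidise it back. Srd5a1 and Akr1c14 act in sequence on progesterone and testosterone, the first reducing a double bond and the second a keto group. Several proteins named as hydroxysteroid dehydrogenases work mainly on fatty acids or in mitochondria and peroxisomes.

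The arrays sat on 1 slide, in 2 rows, and 34653 to 40582 probes per array lay well above background. Each probe value below is log2 signal relative to the 75th percentile of the array, which ran from 170 to 311 intensity units, and the number of arrays limits the precision. Limma fitted to all 36755 kept probes called 0% of them at an adjusted p under 0.05 (the lowest was 0.119). At an unadjusted p under 0.05, 3.66% were higher in KO and 8.78% lower. The values of the groups did not overlap for 6.91% of probes in the higher direction and for 13.4% in the lower. The median log2 fold change of all kept probes was -0.08, and median centring moved it to 0.10 and turned the split at an unadjusted p under 0.05 from 1347 higher and 3228 lower into 3626 and 1234, so small differences below carry no firm direction. The brighter Kdm4a probe read 2.14, 1.91 and 1.85 in WT replicates 1, 2 and 3 and 1.46, 1.21 and 1.37 in KO, a log2 fold change of -0.62 ± 0.14 (SE, n = 3 per group; limma adjusted p = 0.265). Whether that probe lies inside the deleted part is not known, so it does not check the labels. Of the marker lists for somatotropes, lactotropes, corticotropes, gonadotropes, thyrotropes and melanotropes, every gene was well above background on all 6 arrays.

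Of the 8 kept members, 6 had a log2 fold change (KO minus WT) below 0 and 2 above 0, with a median of -0.18 and a range from -1.68 to 0.07. For 3 of them, Hsd17b2, Akr1c13 and Hsd17b12, every KO value was below every WT value, and for 0 of them was every KO value above. Since the set was chosen on this contrast, its count is not read against the 13.4% of all probes. The members fell into 2 enzymes with differences above 1 on the log2 scale, Hsd17b2 and Akr1c13, and 6 with differences of 0.30 or less.

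**Figure D1:**
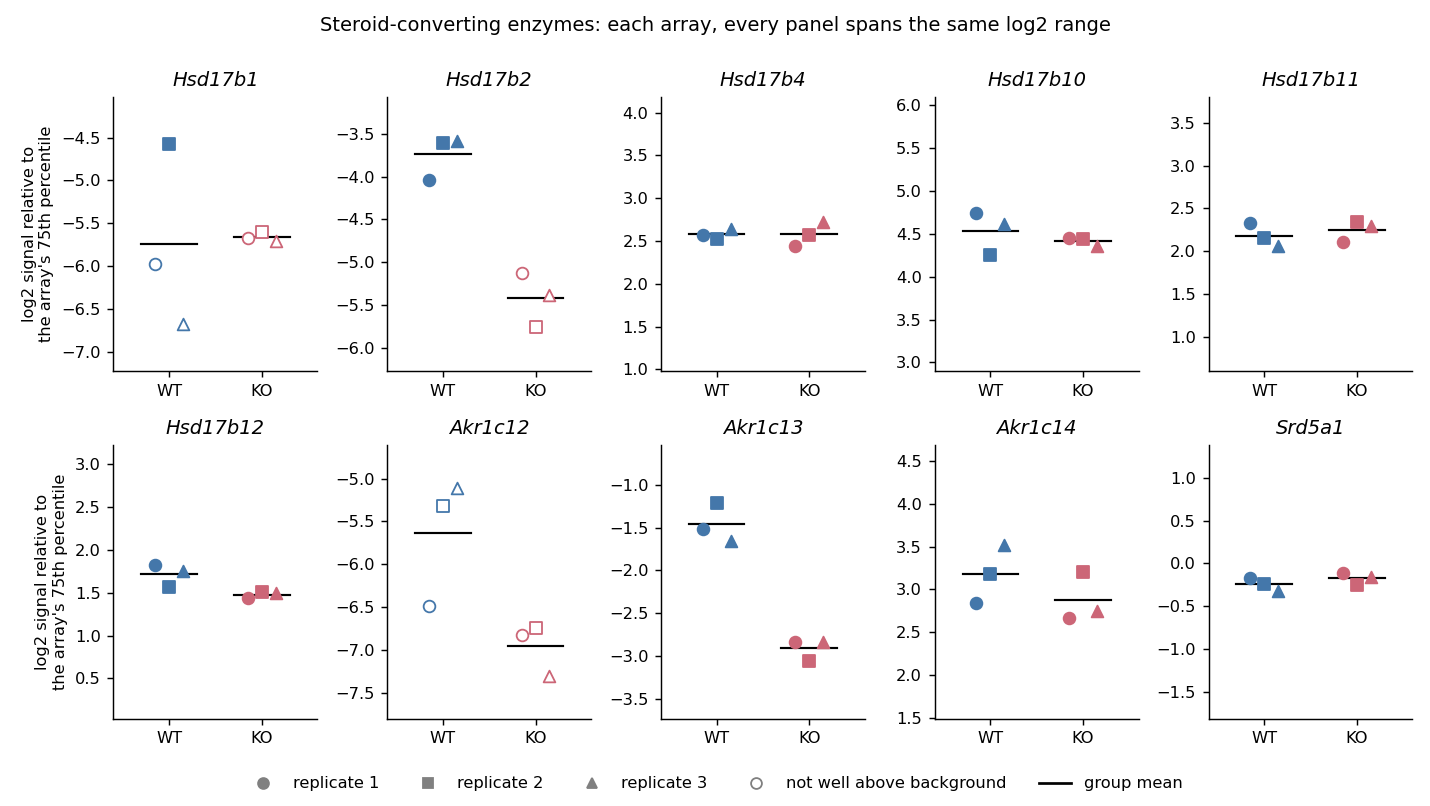
Log2 signal relative to the 75th percentile of the array for the 10 steroid-converting enzymes, WT and KO, 3 arrays each. Symbols mark the replicate, open symbols a spot not well above background, lines the group means, and every panel spans the same log2 range. Akr1c13 lies between -1.66 and -1.21 in WT and between -3.05 and -2.83 in KO, whereas the Srd5a1 values of both groups lie between -0.32 and -0.11.

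Hsd17b2, which oxidises oestradiol to oestrone and testosterone to androstenedione, was read by a probe that could be measured in WT alone. The probe read -4.04, -3.61 and -3.58 in WT replicates 1, 2 and 3, where it was well above background, and -5.12, -5.76 and -5.38 in KO, where it was well above background on none. The groups did not overlap, with means of -3.74 ± 0.26 and -5.42 ± 0.32 (SD, n = 3 each). The probe passed the filter through the WT arrays alone, so a difference between the groups was built into its passing. Each KO array was also set at the lowest signal measured well above background there, or at its own value if higher. So treated, Hsd17b2 was 2.39-fold lower in KO on this scale. That is no minimum over the settings, because the log2 fold change was -0.39 with normexp. The measured means differ by a log2 of -1.68 ± 0.21 (SE).

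In intensity units the Hsd17b2 spots were near the floor of the scanner. The processed signals were 10.4, 25.6 and 16.1 in WT and 7.06, 4.30 and 7.29 in KO, with errors given by the scanner program of 1.74 to 3.53. Of the 3 WT arrays, replicate 1 lay nearest to the KO arrays. Median brightness minus local background, before scaling between arrays, was 6, 36 and 16 in WT and 7, 10 and 9.5 in KO, so on that measure WT replicate 1 was the lowest of the 6. With normexp the log2 fold change was -0.39 and with quantile normalization -1.27, both smaller in size than for Akr1c13 under the same settings (-0.70 and -1.35). The sign was the same in the 16 alternatives that kept the probe. Most of these could not turn it, because they left the estimate as it was or only left out arrays of groups without overlap. Hsd17b2 was not among the probes of the authors' deposited value table.

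Hsd17b1, the enzyme of ovarian granulosa cells that reduces oestrone to oestradiol, was not measurable in these glands. Its probe was well above background on WT replicate 2 alone. It read -5.97, -4.58 and -6.68 in WT replicates 1, 2 and 3 and -5.67, -5.60 and -5.70 in KO. The groups overlapped, and no fold is given.

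Akr1c13, an aldo-keto reductase, separated the groups on a probe that could be measured on every array. Its probe read -1.51, -1.21 and -1.66 in WT replicates 1, 2 and 3 and -2.83, -3.05 and -2.83 in KO replicates 1, 2 and 3. All 3 KO arrays were low, and the groups did not overlap. The means were -1.46 ± 0.23 in WT and -2.91 ± 0.13 in KO (SD, n = 3 each), a log2 fold change of -1.45 ± 0.16 (SE), or a KO signal 0.367 of that in WT. The spot itself was dim on every array: its processed signal was 59.6, 135 and 61.1 intensity units in WT and 34.5, 28.1 and 42.5 in KO, against 75th percentiles of 170 or more. Before scaling, the KO spots were also the 3 lowest, although KO replicate 3 and WT replicate 1 differed by less than they did after it.

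The size of the Akr1c13 difference varied with the processing. The settings below differ in more than the background step, and which part changed the size was not tested. With normexp, which adds an offset of 50 to every spot and so draws dim values together, the log2 fold change was -0.70. That setting also started from median brightness and local background, not from the processed signal. In the authors' deposited value table, whose columns correlated at 0.997 or more with spot brightness before background subtraction, the log2 values were 6.98, 7.35 and 6.94 in WT and 6.52, 6.46 and 6.53 in KO, a difference of -0.59. With slide row 1 alone, 2 arrays per group, it was -1.25. The sign was the same in all 18 alternatives, and the range ran from -1.55 to -0.59. Most of these could not turn it. Other filters, probe rules, the variance trend and blocks left the estimate as it was. Leaving out arrays cannot turn the sign where groups do not overlap.

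**Figure D2:**
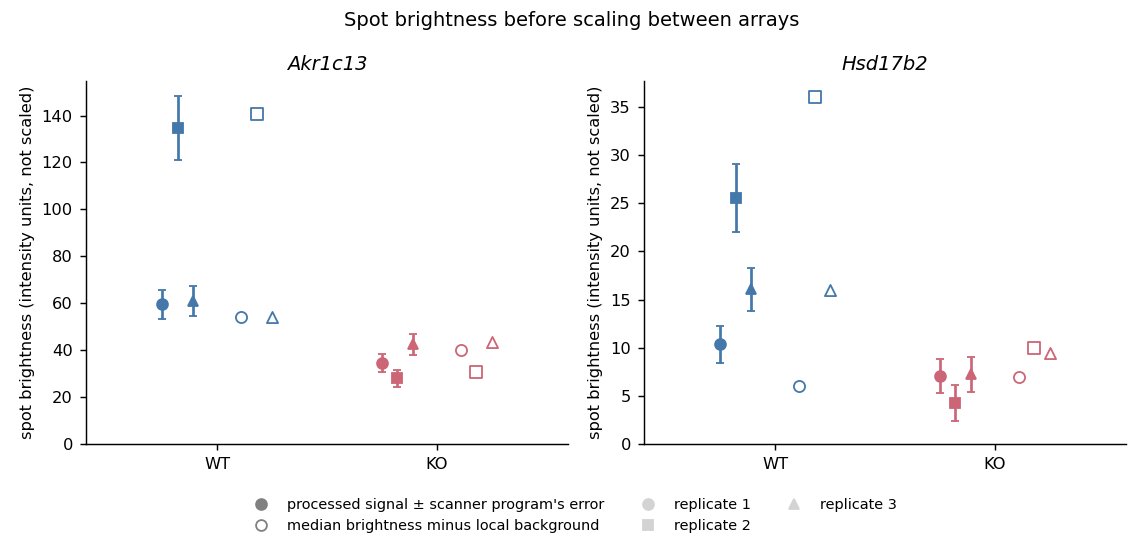
Brightness of the Akr1c13 and Hsd17b2 spots in intensity units, not scaled between arrays, for 3 WT and 3 KO arrays, with separate vertical axes that start at 0. Filled symbols are the processed signal with the error given by the scanner program, and open symbols the median brightness minus local background. For Akr1c13 every WT symbol lies above every KO symbol of the same kind, and for Hsd17b2 the open symbol of WT replicate 1 (6) lies below all 3 KO arrays (7 to 10).

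Akr1c12 is a close relative of Akr1c13 and lay well above background on none of the 6 arrays. Its processed signals were 1.89, 7.77 and 5.59 intensity units in WT and 2.17, 2.17 and 1.92 in KO. On the log2 scale the WT values, -6.49, -5.33 and -5.11, all lay above the KO values, -6.83, -6.75 and -7.30. Before scaling between arrays, WT replicate 1 lay below every KO array, so the groups were apart only after it. With both groups below background this separation has no fold.

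The regions upstream of Akr1c12 and Akr1c13 are shown because the genes are near-copies of which 1 gave a measurable signal and the other did not. Both stretches are the 250 bases before the start of the gene in RefSeq on GRCm38.p6, read 5′ to 3′ along the gene, at chr13:4279400-4279649 on the minus strand for Akr1c12 and chr13:4190937-4191186 on the plus strand for Akr1c13. Capitals mark bases with no identical partner in a global alignment of the pair, 15 in each.
Akr1c12: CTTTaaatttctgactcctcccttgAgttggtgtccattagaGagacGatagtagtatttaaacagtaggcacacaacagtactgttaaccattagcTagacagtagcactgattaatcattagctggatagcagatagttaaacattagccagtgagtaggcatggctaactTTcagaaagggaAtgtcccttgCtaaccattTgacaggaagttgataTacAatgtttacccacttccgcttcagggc
Akr1c13: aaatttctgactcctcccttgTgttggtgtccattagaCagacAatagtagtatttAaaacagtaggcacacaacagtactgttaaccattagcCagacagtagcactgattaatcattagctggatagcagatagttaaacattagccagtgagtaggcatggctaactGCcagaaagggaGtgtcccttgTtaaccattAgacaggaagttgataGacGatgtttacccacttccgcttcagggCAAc
The alignment held 235 identical bases over 254 columns (92.5%), with a longest identical run of 75. Other relatives were much further apart: Akr1c13 shared 58.7% with Akr1c19 and 46.1% with Akr1c14 over the same window. Probe sequences were not used here, so how much signal of near-copies the Akr1c13 probe also catches was not tested.

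RefSeq promoter windows, 250 bases before to 50 after the start, matched 7 of the 10 members, all but Hsd17b1, Hsd17b2 and Hsd17b4. Only the 250 bases before the start were searched, and the 50 after it were not. On both strands they held 0 matches to 7 motifs, none of which contains another. In the same 250 bases of all 32851 windows, the oestrogen response element occurred in 0.0639%. The cyclic AMP response element TGACGTCA occurred in 1.55%, and the AP-1 site TGANTCA in 6.75%. The SF-1 site CAAGGTCA occurred in 1.33%, the antioxidant response element TGACNNNGC in 10.2%, the glucocorticoid response element in 1.08% and the TATA box TATAAA in 12.4%. The absence of a match says only that these letters are not in these 250 bases.

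On mouse chromosome 13 the Akr1c genes lie side by side, in the order Akr1c14, Akr1c18, Akr1c13, Akr1c19, Akr1c12, Akr1c6, Akr1c20, Akr1c21 and then Akr1e1. The members are thus not adjacent, with Akr1c18 and Akr1c19 between them, in a single cluster. Akr1c18, which inactivates progesterone and lies between Akr1c14 and Akr1c13, had a log2 fold change of 0.01 ± 0.21, and Akr1c6, next to Akr1c12, of -0.10 ± 0.21 (SE). For both the sign turned under some alternatives. Akr1c19 and Akr1c21 lay well above background on none of the arrays, and for Akr1c20 no probe was matched. Akr1e1, at the end of the cluster, read -0.28 ± 0.13, with an adjusted p of 0.419 in limma.

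Akr1c14, which reduces dihydrotestosterone and dihydroprogesterone further, was bright on every array. It read 2.84, 3.18 and 3.52 in WT replicates 1, 2 and 3 and 2.67, 3.21 and 2.75 in KO. WT replicate 3 was the highest and KO replicate 1 the lowest, and the groups overlapped, with KO replicate 2 above 2 of the WT arrays. The log2 fold change was -0.30 ± 0.23 (SE), from -0.47 to -0.13 over 18 alternatives. Its within-group SD of 0.32 was larger than that of 71.5% of kept probes. The mean of the 4 Schwann cell markers also rose over the WT arrays, at 0.07, 0.77 and 1.51 in replicates 1, 2 and 3. In KO it lay between 0.35 and 0.50, and all 4 were well above background on every array. Other lists rose in the same WT order. The means were 3.23, 3.30 and 3.51 for pericytes and fibroblasts and 1.34, 1.38 and 1.72 for folliculostellate and stem cells. For neutrophils they were -2.41, -2.17 and 0.39. The part of these cell types in the Akr1c14 values was not tested.

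Srd5a1, which makes dihydrotestosterone and dihydroprogesterone, the substrates of Akr1c14, varied least. It read -0.17, -0.24 and -0.32 in WT and -0.11, -0.25 and -0.16 in KO, and the groups overlapped. The log2 fold change was 0.07 ± 0.12 (SE). Its within-group SD, 0.08, was below that of nearly all kept probes: only 4.14% had a smaller one. Under median centring the difference read 0.25.

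Hsd17b12, which carries out a reduction step in the lengthening of fatty acids at the endoplasmic reticulum, was the remaining member without overlap. It read 1.83, 1.57 and 1.75 in WT replicates 1, 2 and 3 and between 1.43 and 1.51 on the 3 KO arrays. These lay close together just below WT replicate 2, the lowest WT array. The means were 1.71 ± 0.13 and 1.48 ± 0.04 (SD, n = 3 each), and the log2 fold change -0.24 ± 0.13 (SE) shrank to -0.06 with median centring.

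Hsd17b4, the peroxisomal enzyme that shortens fatty acids, had the same mean in both groups to the second decimal. It read 2.57, 2.52 and 2.64 in WT and 2.44, 2.57 and 2.72 in KO, a log2 fold change of -0.00 ± 0.13 (SE). KO replicates held both the lowest and the highest value. The sign differed from the reported one in 7 of 18 alternatives, which ran from -0.07 to 0.18.

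Hsd17b10 is a mitochondrial dehydrogenase that also belongs to the enzyme processing mitochondrial transfer RNA, and Hsd17b11 sits on lipid droplets. Hsd17b10 read 4.74, 4.25 and 4.62 in WT and 4.45, 4.44 and 4.35 in KO, and WT replicate 2 was the lowest array. Its log2 fold change was -0.12 ± 0.16 (SE), and quantile normalization and median centring turned the sign (0.01 and 0.05). Hsd17b11 read 2.33, 2.16 and 2.06 in WT and 2.11, 2.34 and 2.30 in KO, and the groups overlapped. Its log2 fold change was 0.07 ± 0.14 (SE).

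**Figure D3:**
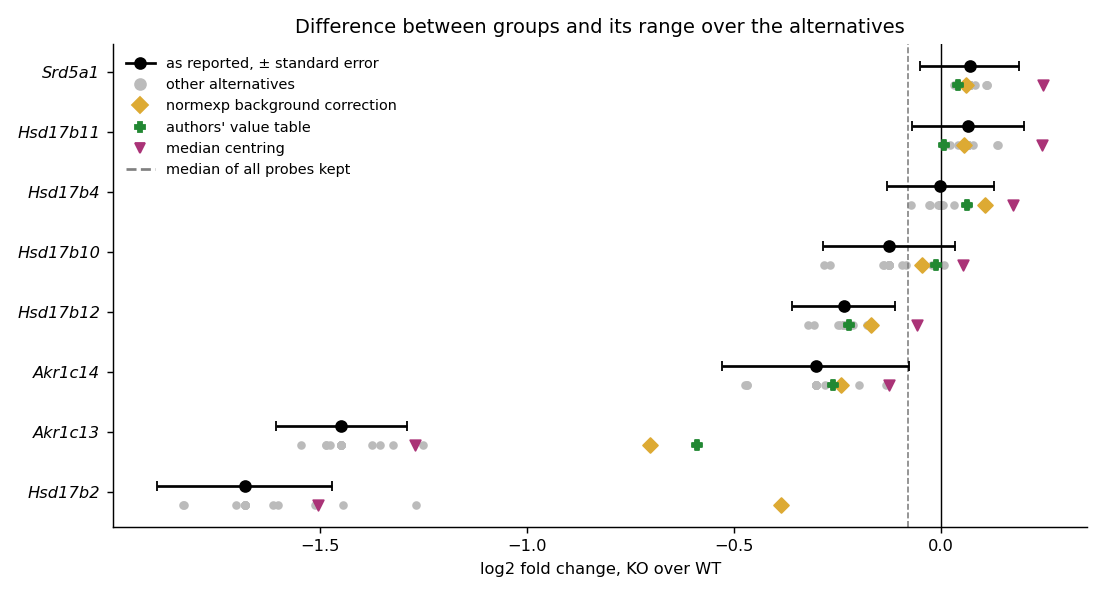
Log2 fold change, KO over WT, of the 8 kept members, with black points and bars for the reported value and its standard error (n = 3 arrays per group) and coloured or grey marks for the alternatives. The dashed line is the median of all kept probes (-0.08). Akr1c13 and Hsd17b2 lie left of -1 as reported and move to -0.70 and -0.39 with normexp, and the other 6 stay between -0.47 and 0.25.

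Markers of cell types were set beside Akr1c13 and Hsd17b2. For 5 of the 17 marker lists the mean over the markers was lower on every KO array than on every WT array. For 0 lists it was higher. Of single probes, 13.4% were so separated in the lower and 6.91% in the higher direction, and the lower share was 3.78% with median centring. A mean over several markers is not a single probe, so the lists are not read against these shares. The mean of the 4 corticotrope markers was 2.49, 2.13 and 2.29 in WT and 1.89, 1.92 and 1.99 in KO; Avpr1b, the vasopressin receptor of corticotropes, read -0.58 ± 0.12 and Crhr1, the receptor for corticotropin-releasing hormone, -0.51 ± 0.16 (SE), with adjusted p in limma of 0.258 and 0.337. Pomc, the hormone precursor that corticotropes share with melanotropes, read -0.23 ± 0.23 and Tbx19 -0.16 ± 0.15. The 4 pericyte and fibroblast markers averaged 3.23, 3.30 and 3.51 in WT and 3.15, 2.75 and 2.94 in KO. The collagen gene Col1a1 read -0.83 ± 0.24 and Dcn -0.52 ± 0.18, whereas Col1a2 read -0.08 ± 0.30 and Pdgfrb -0.18 ± 0.14 (SE). In both lists all markers were well above background on every array, and 2 of 4 were lower at an unadjusted p under 0.05, as were 8.78% of all kept probes. The 4 thyrotrope markers averaged 4.61, 4.35 and 4.27 in WT and 4.02, 4.17 and 4.26 in KO, so that the groups were almost in contact. Of these, 1 of 4 was lower at that threshold, Dio2 at -0.54 ± 0.14. Trhr read -0.38 ± 0.21, Cga -0.25 ± 0.21 and Tshb 0.14 ± 0.14 (SE).

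The 5 neutrophil markers averaged -2.41, -2.17 and 0.39 in WT and -2.80, -3.18 and -2.48 in KO, so WT replicate 3 stood far above the other 5 arrays. Of these markers, S100a8 (-1.79 ± 0.79), S100a9 (-1.68 ± 0.75) and Camp (-1.10 ± 0.60, SE) were well above background on all 6 arrays, and 0 of 5 were at an unadjusted p under 0.05. Without WT replicate 3 the Akr1c13 difference was -1.55. The part of these cell types in the Akr1c13 and Hsd17b2 values was not tested.

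The fifth list was that of ovarian granulosa cells, of whose 4 markers 2, Amh and Fshr, were well above background on 0 arrays. The other 2, Inha, which gonadotropes also make, and Cyp19a1, which is also among the listed enzymes, averaged -2.83, -2.58 and -2.83 in WT and -3.21, -3.51 and -3.66 in KO. Of the 5 adrenal cortex markers, Mc2r was above background on no array and Cyp11a1, which starts steroid synthesis, on 1. The mean of the 3 that were kept overlapped between the groups, from -1.90 to -1.36 in WT and from -2.18 to -1.76 in KO. The array with Cyp11a1 was WT replicate 3, at -1.55 against -6.68 and -6.92 in WT replicates 1 and 2. Hsd3b1 also stood out there, at 0.75 against -4.94 and -4.35. The kept Star probe (-0.89) and Cyp17a1 (4.38) were instead highest on WT replicate 1.

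The other enzymes of the pathway were taken from 5 lists with 55 genes, of which 52 had a probe and 37 were kept. None passed limma's test over all probes, and at an unadjusted p under 0.05, 1 was higher and 4 were lower in KO, beside 3.66% and 8.78% of all kept probes. These shares over all probes are the background for each list below, and their split between higher and lower turned around with median centring. By sign, 13 lay above 0 and 24 below, with a median of -0.10, beside -0.08 and 61.4% below 0 for all kept probes.

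Other hydroxysteroid dehydrogenases had 9 kept genes, a median of -0.28 and 3 lower at an unadjusted p under 0.05 (8.78% of all kept probes), against 0 higher (3.66%). Hsd17b7, an enzyme of cholesterol synthesis that also reduces oestrone, read -2.59, -2.33 and -2.27 in WT and averaged -3.09 ± 0.15 (SD, n = 3) in KO. The groups did not overlap, and the log2 fold change was -0.70 ± 0.15 (SE; limma adjusted p = 0.258), with -0.69 ± 0.19 at its second probe and -0.26 in the authors' deposited value table. Hsd3b7, which acts in bile acid synthesis, read 3.61, 3.83 and 4.25 in WT and 3.27, 3.30 and 3.18 in KO, a log2 fold change of -0.65 ± 0.18 (limma adjusted p = 0.322). Hsd3b2 was dim, and its difference of -0.87 ± 0.26 (limma adjusted p = 0.327) was -0.26 with normexp. Its second probe was well above background on none of the arrays. Hsd3b2 has near-identical relatives whose signal its probe may share.

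Other aldo-keto reductases had 8 kept genes, a median of -0.11 and 0 at an unadjusted p under 0.05 in either direction by their brighter probe. Akr1b10 read 3.37, 3.44 and 3.06 in WT and 3.60, 3.58 and 3.64 in KO, so that all KO arrays were higher, by a log2 of 0.32 ± 0.14 (limma adjusted p = 0.416). Its second probe gave 0.38 ± 0.16. Akr1b8 read -0.18 ± 0.12, and for it and for Akr1e1 (-0.28 ± 0.13) all KO arrays were lower. Of all kept probes, 6.91% had groups without overlap in the higher direction and 13.4% in the lower.

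Among reductases of double bonds, Srd5a3, which works in the synthesis of dolichol rather than on hormones, was lower in all 3 KO arrays. It read 0.76, 0.88 and 0.74 in WT and 0.56, 0.44 and 0.58 in KO, a log2 fold change of -0.26 ± 0.12 (limma adjusted p = 0.416), with -0.24 ± 0.11 at its second probe. Tecr, of fatty acid lengthening like Hsd17b12, read -0.21 ± 0.18. Srd5a2, the relative of Srd5a1 in male reproductive tissue, read -0.07 ± 0.18.

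Of 11 kept genes of steroid synthesis, 1 was lower and 0 were higher at an unadjusted p under 0.05, with a median of -0.21; a share of 8.78% of all kept probes was lower. That gene was Cyp19a1, the aromatase that makes oestrogens from androgens, at -4.17, -3.96 and -4.92 in WT and -4.65, -5.43 and -5.63 in KO. It was well above background on 2 WT arrays and 1 KO array, the groups overlapped, and its log2 fold change of -0.89 ± 0.34 (limma adjusted p = 0.379) was -0.28 with normexp. Fdxr, which passes electrons to the mitochondrial cytochromes, read -0.32 ± 0.14, and the cholesterol carrier Stard3 0.30 ± 0.14.

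Genes of oestrogen and steroid clearance had 6 kept members and a median of 0.02. Sult2b1, a sulfotransferase acting on cholesterol and other hydroxysteroids, read -1.19, -0.88 and -1.04 in WT and -0.73, -0.58 and -0.60 in KO. All KO arrays were higher, and the log2 fold change was 0.40 ± 0.13 (limma adjusted p = 0.353). Cyp7b1, a hydroxylase of oxysterols, read -0.07 ± 0.14.

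**Figure D4:**
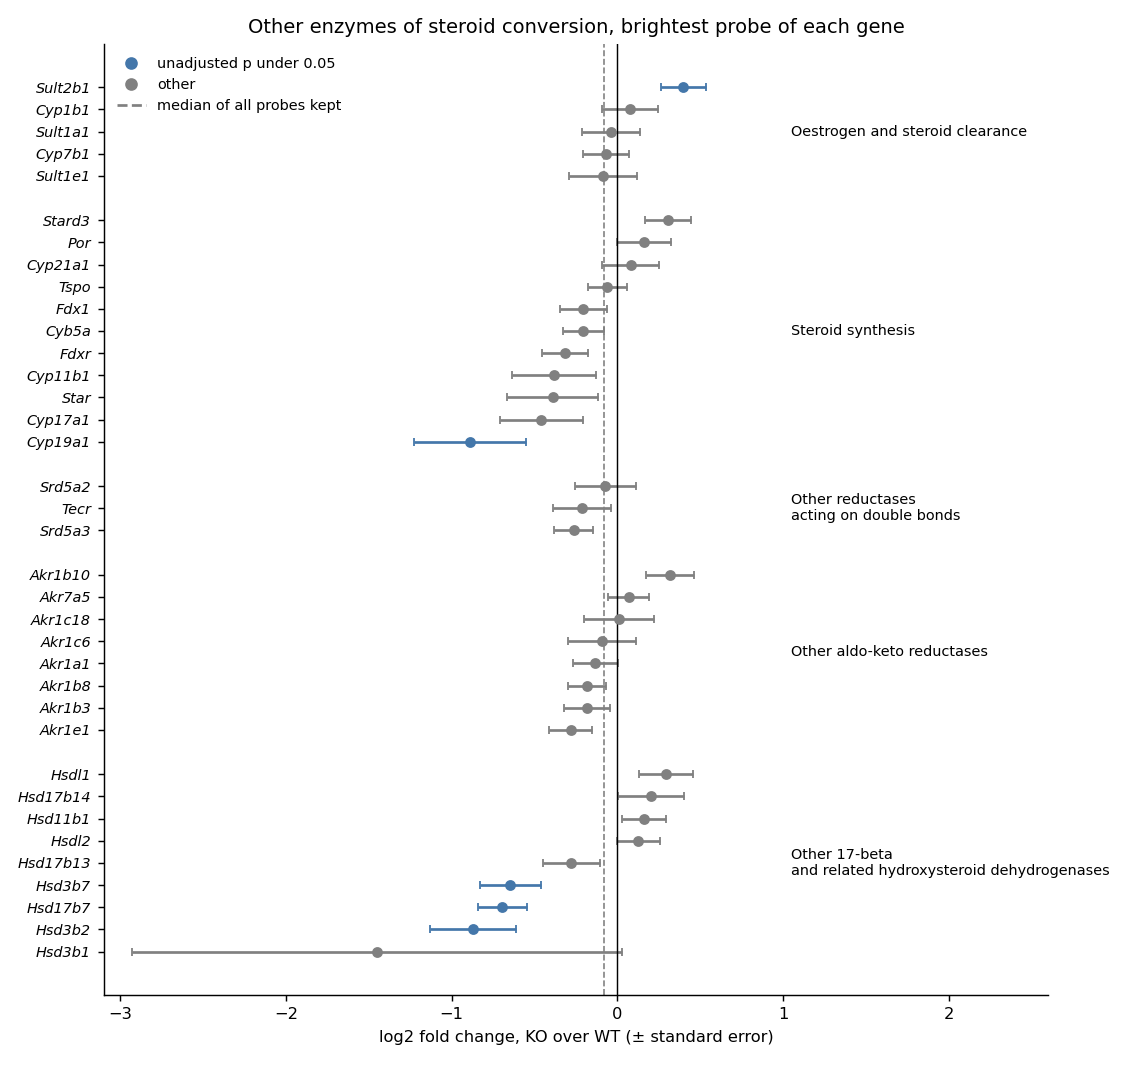
Log2 fold change, KO over WT, of 36 of the 37 kept enzymes of the 5 lists, by the brightest probe of each gene, with bars for the standard error (n = 3 arrays per group). Blue marks an unadjusted p under 0.05, which 4 genes below 0 and 1 above 0 reach, and the dashed line is the median of all kept probes (-0.08). Hsd3b1 has the widest bar (-1.45 ± 1.48), and without WT replicate 3 its value was 0.35.

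Finally, the genes whose pattern over the 6 arrays was most like that of Akr1c13 were found by the root mean square difference of the log2 values after subtraction of the mean of each probe, among 21486 named probes. Nearest to Akr1c13 were the homeobox gene Nkx3-2 (difference 0.10), the transporter gene Atp13a4 (0.11), Csf2ra, a subunit of the receptor for granulocyte-macrophage colony-stimulating factor (0.16), Fmr1nb (0.19) and the olfactory receptor gene Olfr1508 (0.19). For Hsd17b2 no such genes are named, because its 3 KO values were not well above background. The genes named beside Akr1c13 had log2 fold changes of -1.38 to -1.24, so the likeness mostly repeats the difference between the groups that chose the members. Nkx3-2 and Atp13a4 were dim, well above background on 2 of the 3 KO arrays, whereas Csf2ra, at 1.16 to 1.41 in WT and 0.02 to 0.05 in KO, lay well above background on every array.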

How the data were processed

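RNA of 6 whole pituitaries, 1 animal per array, was measured on one-colour Agilent arrays. Per the file headers, Agilent Feature Extraction 11.0.1.1 wrote the deposited intensity values (gProcessedSignal, background-subtracted but not normalized between arrays), their errors and the flags. The authors' value table holds deposited log2 values, whose columns have medians of 8.25 to 8.26 and correlate at 0.997 or more with log2 median spot brightness. The submitters' processing notes name limma, and for that table the normalization and filter are not stated there.

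Control and outlier-flagged spots were left out, spots of a probe averaged as log2, and the 75th percentile of each array subtracted. A probe was kept if at least 3 arrays had it well above background (36755 of 55681, of which 21491 had a gene symbol). The genotypes were compared with limma 3.58.1 (R 4.3.3, data.table version 1.17.8; lmFit, eBayes, two-sided, Benjamini-Hochberg, adjusted p under 0.05). For a gene with several probes, the one with the highest mean was used. An exact permutation test of 3 against 3 arrays cannot go below p = 0.1 and was not used. On simulated data, 32.8% of probes changed by a log2 of 1 and 74.6% of those changed by 2 were recovered, with 0 calls where nothing was changed.

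The members and gene lists were chosen with earlier results of these data known. Named genes were all members, up to 3 genes per list with the smallest p, the 5 probes most like Akr1c13 (the rule also covered Hsd17b2, left out because its KO values were not well above background), Kdm4a, and markers of lists that moved with a member. Same-numbered animals did not deviate together (correlations of 0.14, -0.17 and -0.10), which gave no ground to pair the samples by number. Pairing by litter was not tested. The alternatives were normexp, quantile normalization, median centring, the authors' table, other filters and probe rules, a variance trend, blocks for replicate number and slide row, slide row 1 alone, and leaving out each array. Gene symbols and neighbour order came from the RefSeq annotation of GRCm38.p6, and promoter windows from RefSeq on the same build. Of the listed genes, 1 that the rule would name is not reported here. A planned comparison of protein sequences was not run.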

Additional observations from a re-analysis of the deposited data

How the results depend on the processing

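The number of probes called at an adjusted p under 0.05 was 0 as reported and 0 when any 1 array was left out, but 35 with normexp, 29 in the authors' value table, 3 with median centring, 11 with a filter asking for all arrays and 30 with a variance trend; the cause was not tested. The listed enzymes past the test numbered 0 in all 18 alternatives, and 3 to 9 of them were at an unadjusted p under 0.05, against 5 as reported. Members with every KO value below every WT value numbered 3 as reported, 2 to 4 in 17 alternatives and 5 with slide row 1 alone, which holds only 2 arrays per group. The replicate block, which assumes that equal numbers pair the animals, gave 0 calls and 1064 higher and 2744 lower probes at an unadjusted p under 0.05, against 1347 and 3228. These counts were 2447 and 1794 with quantile normalization, 3626 and 1234 with median centring, 2016 and 1778 in the authors' table, 2697 and 4295 without WT replicate 2 and, with KO replicates 1, 2 and 3 left out in turn, 872, 769 and 675 higher and 2497, 2087 and 1952 lower. Lower probes whose groups do not overlap made up 8.74% with quantile normalization and 3.78% with median centring, and the median of all probes was -0.18 without a filter on dim probes. Of the members, Akr1c13, Hsd17b2, Hsd17b11, Hsd17b12, Akr1c14 and Srd5a1 kept their sign in every alternative that kept their probe. Hsd17b10 turned in 2 and Hsd17b4 in 7. Other filters, probe rules, the variance trend and blocks could not change a member's sign, because they left its estimate as it was. Leaving out arrays could not turn it for Akr1c13, Hsd17b2 and Hsd17b12, whose groups did not overlap. Signal over background limits Hsd17b2, Hsd17b1 and Akr1c12 most.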
